A study of Mus musculus with 8 samples.

Results

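The genes described here are 34 mouse genes of the citric acid cycle and of the steps that feed pyruvate into it. They were listed by symbol for their biochemical role. The rule itself uses no binding value. All 34 matched 1 of 21887 protein-coding genes on chromosomes 1 to 19, X and Y of a RefSeq table (GRCm38.p6, the same build as mm10). The study mapped chromatin binding by ChIP-seq, which sequences DNA that co-purifies with a protein, in a pair of mouse oligodendrocyte preparations. Differentiated cells came from FvB/C57BL6 hybrid neural stem cells with ectopic expression of PPARb that carried an HA tag, at passage 7, and had been grown in Neurobasal medium with 100 ng/mL IGF-1 and 50 ng/mL T3. Isolated cells came straight from C57BL6 mouse brains at passage 0, by magnetic beads against O4, and the labels name no introduced receptor in them. In differentiated cells RNA polymerase II (Pol II), Qki-5, the receptor and its HA tag were each pulled down, and in isolated cells Qki-5 and PPARb were. The PPARb antibody cannot tell introduced from native receptor in differentiated cells. Strain, origin, culture and introduced PPARb all differ between the cell kinds and cannot be told apart. Each of the 8 groups, 2 inputs included, was a single library, so values carry no replicate check and no test was run.

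In the citric acid cycle, mitochondria oxidise acetyl-CoA to carbon dioxide and pass the electrons to the respiratory chain. Pyruvate enters mitochondria through a carrier and is either oxidised to acetyl-CoA by the pyruvate dehydrogenase complex or carboxylated to oxaloacetate. In oligodendrocytes, which wrap axons in myelin, citrate exported from the cycle also supplies acetyl units for lipid synthesis. Qki-5 is the form of Quaking, an RNA-binding protein, that resides in the nucleus, and PPARb is a fatty acid-activated nuclear receptor that partners with RXR. PPAR receptors are known from muscle and liver to act on Pdk4, a kinase that switches off pyruvate dehydrogenase.

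A gene was called bound when the centre of a 200 bp peak lay in its span or within 5 kb of it, and a boundary peak had its centre within 1000 bp of either gene end. Peak height is the authors' normalized tag count, in tags per 10000000, and intervals of heights are exact 95% Poisson intervals that cover counting error only. Libraries held 12624236 to 24880851 tags. Tags in peaks made up 1.39% to 4.62% of the differentiated-cell libraries, and 0.849% (Qki-5) and 0.116% (PPARb) of those from isolated cells, so a missing peak in isolated cells says only that none was detectable at this depth. Of 10 oligodendrocyte marker genes, 4 to 6 had a peak within 5 kb in the differentiated-cell lists, against 9 in the Qki-5 list and 3 in the PPARb list of isolated cells. All 4 astrocyte and all 4 neuron markers had a Qki-5 peak within 5 kb in differentiated cells, and 0 in isolated cells. Of 3 endothelial markers, 2 had a Qki-5 peak in differentiated cells and 3 in isolated cells. Of 4 precursor and neural stem cell markers, 2 to 4 had a peak in the differentiated-cell lists, against 2 with Qki-5 and 0 with PPARb in isolated cells. Microglia markers had a peak at 0 or 1 of 4 in every list. Protein-coding genes outside the described set give the background for these counts. Their shares with a peak within 5 kb were 61.1% (Qki-5), 57.2% (PPARb), 60.5% (HA) and 47.4% (Pol II) in differentiated cells. In isolated cells the shares were 35.6% (Qki-5) and 7.57% (PPARb). Oligodendrocyte markers were thus near or below background in the differentiated-cell lists and above it in the isolated-cell lists. With 3 to 10 markers per kind, no difference from background was tested. Binding is no measure of expression, and the part of other cells in the results was not tested.

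The promoters of 4 genes are printed to show the letters before starts with paired Qki-5 and PPARb peaks and before the start of the gene with no peak. Sdhb, Mpc1 and Idh1 are members whose promoter window held the centres of both a Qki-5 and a PPARb peak in differentiated cells, taken in order of PPARb height. Sdha was passed over because its upstream bases lie in the span of the neighbour Ccdc127. Each sequence is the 250 bases before an annotated RefSeq start on GRCm38.p6, read 5′ to 3′ on the gene's strand. Capitals mark matches, on either strand, to AGGTCA (a nuclear receptor half-site), GGGCGG (an Sp/KLF site), CCAAT (an NF-Y box) or GCATGCGC (an NRF1 core). The Sdhb stretch is chr4:140961021-140961270 on the plus strand, and the Mpc1 stretch is chr17:8283537-8283786 on the plus strand. The Idh1 stretch is chr1:65179143-65179392 on the minus strand, before a start inside the gene. The Pdk4 stretch is chr6:5496279-5496528 on the minus strand.
Sdhb: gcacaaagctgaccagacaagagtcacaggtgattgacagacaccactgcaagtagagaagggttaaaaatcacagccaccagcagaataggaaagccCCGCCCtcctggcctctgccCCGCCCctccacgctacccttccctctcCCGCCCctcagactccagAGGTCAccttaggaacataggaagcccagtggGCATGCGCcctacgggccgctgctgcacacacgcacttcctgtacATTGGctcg
Mpc1: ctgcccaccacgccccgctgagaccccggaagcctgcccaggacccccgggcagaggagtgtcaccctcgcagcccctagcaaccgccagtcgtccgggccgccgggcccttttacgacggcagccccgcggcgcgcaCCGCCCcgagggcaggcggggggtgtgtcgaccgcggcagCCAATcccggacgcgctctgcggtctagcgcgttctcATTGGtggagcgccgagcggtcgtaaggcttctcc
Idh1: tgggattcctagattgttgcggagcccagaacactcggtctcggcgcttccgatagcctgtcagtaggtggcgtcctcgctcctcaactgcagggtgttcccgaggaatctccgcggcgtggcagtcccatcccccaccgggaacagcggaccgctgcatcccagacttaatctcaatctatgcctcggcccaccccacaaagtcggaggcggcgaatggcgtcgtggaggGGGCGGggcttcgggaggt
Pdk4: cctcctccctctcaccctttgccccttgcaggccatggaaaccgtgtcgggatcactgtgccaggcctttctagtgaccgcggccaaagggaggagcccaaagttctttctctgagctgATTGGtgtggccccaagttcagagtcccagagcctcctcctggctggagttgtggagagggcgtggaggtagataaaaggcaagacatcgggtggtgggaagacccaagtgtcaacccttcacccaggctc

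The Sdhb stretch held 1 AGGTCA, 86 bases before the start, as well as 3 GGGCGG matches, 1 GCATGCGC and 1 CCAAT. The Mpc1 stretch held 1 GGGCGG and 2 CCAAT matches, the Idh1 stretch 1 GGGCGG alone, and the unbound Pdk4 stretch 1 CCAAT. Among the 3 bound promoters, an AGGTCA was thus in 1 of the 250-base stretches. It lay just before the 200 bp Sdhb Qki-5 and PPARb peaks of differentiated cells, which were centred 29 and 20 bp after the start. It was inside the Sdhb Qki-5 peak of isolated cells. The 3 GGGCGG matches began 104 to 152 bases before the start, farther outside the differentiated-cell peaks. The nearest of them was inside the isolated-cell Qki-5 peak.

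In differentiated cells nearly all of these genes were bound by every protein mapped. Qki-5 had a peak within 5 kb of 32 of 34 (61.1% of the other 21853 genes), PPARb of 31 (57.2%), HA of 33 (60.5%) and Pol II of 31 (47.4%). Counted at gene ends, there were 30 members with a Qki-5 boundary peak (46.3% of other genes), 30 with a PPARb peak (42%), 32 with an HA peak (46.4%) and 30 with a Pol II peak (36.3%). All 4 proteins were within 5 kb of 30 members (44.7% of other genes). The shares of members stood well above those of other genes in each of these full lists, as the bar plot of shares shows. Among the 2000 tallest peaks of each list the direction turned for PPARb within 5 kb (0 of 34 members, against 8.07% of other genes). The difference there was 1.21 percentage points for Qki-5 and 0.587 for HA. All 4 proteins were then at 0 of 34 members and 0.682% of other genes, a share too small for 34 genes to show a direction. Pdk4 was the 1 member with no peak in any of the 6 lists, which held for 34.3% of other genes.

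In differentiated cells nearly all genes with Pol II at an end were bound by Qki-5 and PPARb, members or not. Of the 30 members and 7926 other genes with a Pol II boundary peak, Qki-5 was within 5 kb of 29 members (96.7%, against 98.3% of the other genes), and PPARb of 29 members (96.7%, against 95.7%). Both were within 5 kb of 29 of these 30 members (94.8%). Within such genes the members were bound in differentiated cells about as often as other genes. With shares of other genes this high, little excess was possible. The comparison therefore cannot show whether the members' excess was kept or lost.

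**Figure D1:**
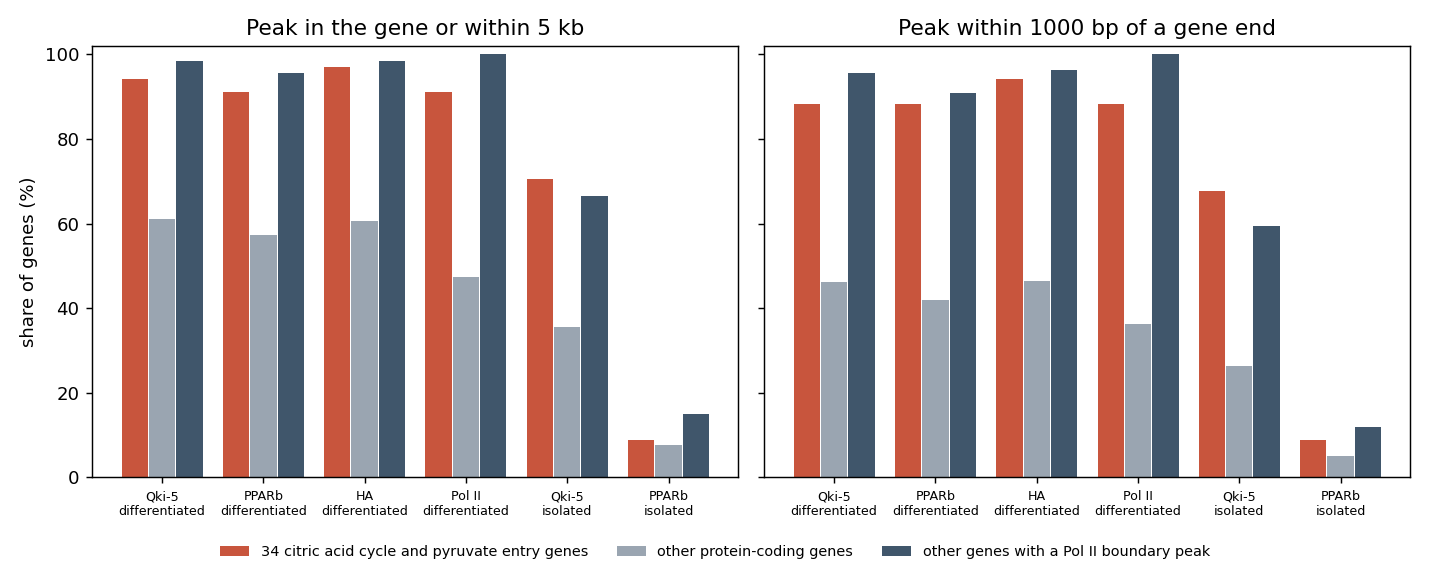
Share of genes (%) with a peak within 5 kb (left) or within 1000 bp of a gene end (right) for the 34 citric acid cycle and pyruvate entry genes (red), the 21853 other protein-coding genes (grey) and the 7926 other genes with a Pol II boundary peak (dark blue). Members exceed other genes in the 4 differentiated-cell lists and in the isolated-cell Qki-5 list. Red bars cover all 34 members, with or without Pol II, so they are not matched to the dark blue bars. The dark blue bars for Pol II are 100% by construction.

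Peak heights were ordinary for bound genes. The median tallest Qki-5 peak was 15.75 at the 32 bound members and 15.5 at other bound genes, and 16 of 32 members lay above 15.5. The median PPARb height was 11.1 at members and 12 at other bound genes, the median HA height 17.4 and 18.2, and the median Pol II height 10.9 and 10.4. All of these medians lay within the quartiles of the other genes. A single peak was found at 19 of 32 members for Qki-5 (59.4%, against 51.5% of other bound genes), 22 of 31 for PPARb (71.0%, 55.2%), 17 of 33 for HA (51.5%, 50.1%) and 21 of 31 for Pol II (67.7%, 70.1%). The HA and Pol II shares were near those of other genes.

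**Figure D2:**
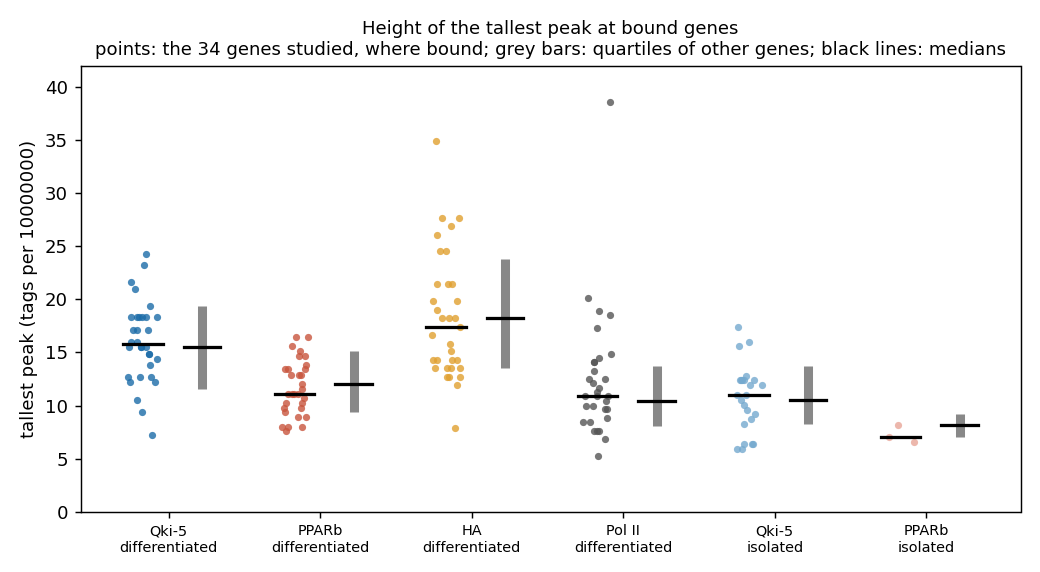
Height of the tallest peak (tags per 10000000) at each bound citric acid cycle and pyruvate entry gene (points, with the median as a black line) beside the median and quartiles of other bound genes (black line and grey bar) in each of 6 lists. The members' medians, such as 15.75 for Qki-5 and 11.1 for PPARb in differentiated cells, lie inside the grey bars for the 4 differentiated-cell lists and isolated-cell Qki-5, and the Pol II point at 38.6 belongs to a peak beside Nop56 within 5 kb of Idh3b.

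**Figure D3:**
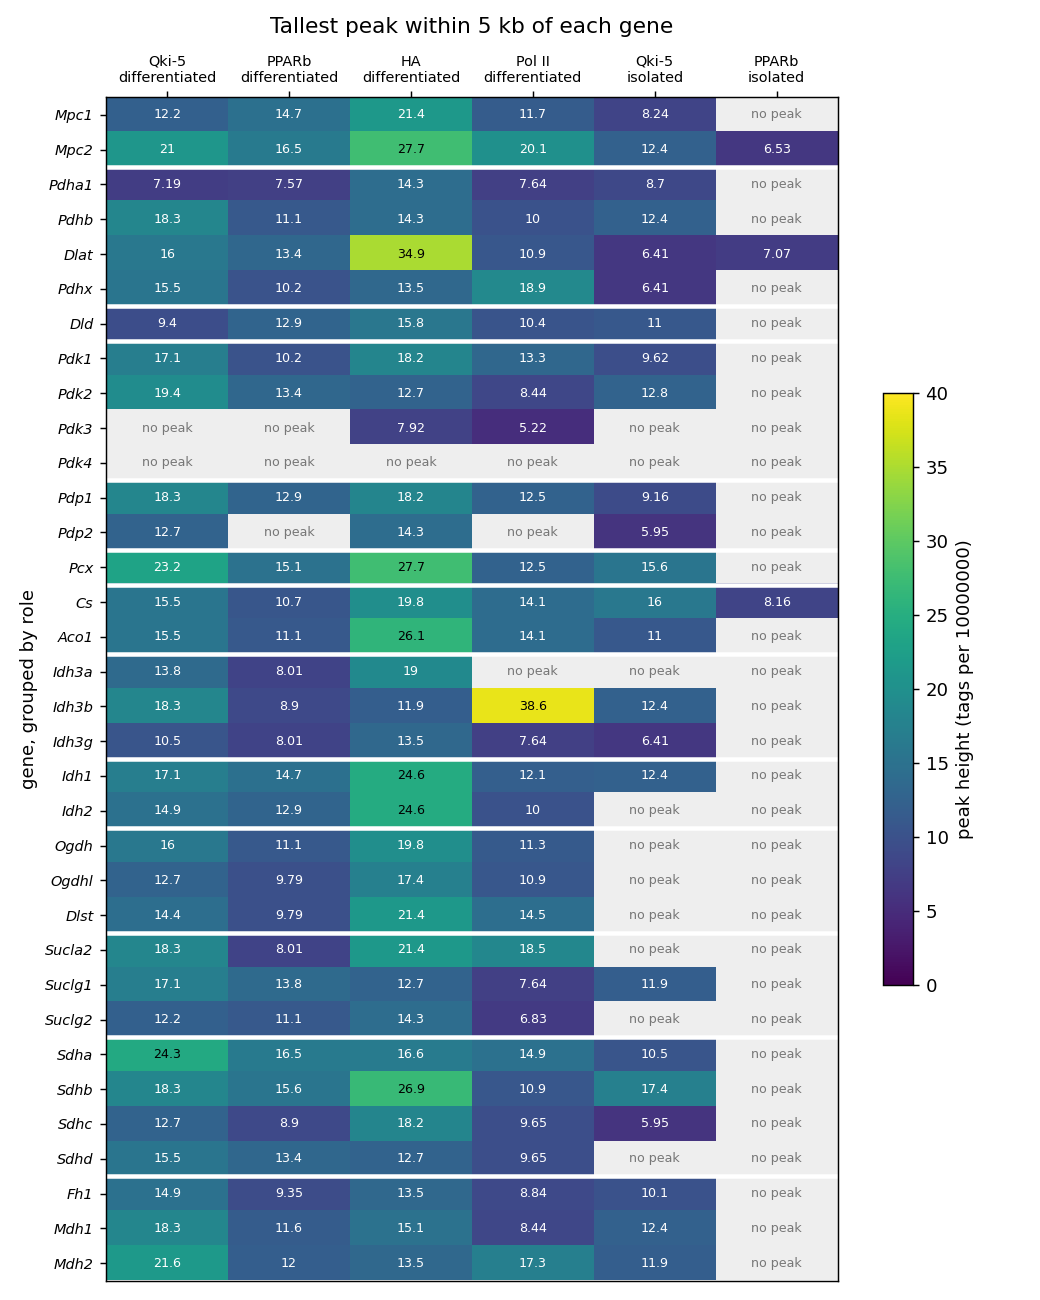
Height of the tallest peak within 5 kb (tags per 10000000, colour and printed value) for each of 34 genes (rows, grouped by role) in the 6 peak lists (columns). Rows for Pdk3 and Pdk4 are mostly empty, isolated-cell PPARb peaks appear at Mpc2, Dlat and Cs alone, and the 3 oxoglutarate dehydrogenase genes lack a Qki-5 peak in isolated cells.

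Both subunits of the mitochondrial pyruvate carrier were bound by all 4 proteins in differentiated cells. Mpc2 had heights of 21.0 (Qki-5), 16.5 (PPARb), 27.7 (HA) and 20.1 (Pol II) in differentiated cells, while isolated cells gave Qki-5 a height of 12.4 there and PPARb one of 6.53. Its partner Mpc1 had heights of 12.2, 14.7, 21.4 and 11.7 in the same order in differentiated cells, and of 8.24 for Qki-5 and no PPARb peak in isolated cells. Mpc2 was the higher of the pair in every list, yet the Qki-5 intervals, 14.9 to 28.9 for Mpc2 and 7.63 to 18.4 for Mpc1, overlapped. The Mpc2 peaks lay at an end that the gene shares with Dcaf6, so they cannot be assigned to either gene.

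The 4 genes specific to the pyruvate dehydrogenase complex were all bound in differentiated cells, with Qki-5 heights of 7.19 to 18.3 and PPARb heights of 7.57 to 13.4. Pdha1, the catalytic alpha subunit, had the lowest Qki-5 and PPARb values among all bound members, 7.19 (3.83 to 12.3) and 7.57 (4.41 to 12.1), with 14.3 for HA and 7.64 for Pol II. In isolated cells Pdha1 had a Qki-5 height of 8.70. Dlat, the acetyltransferase core, had 16 for Qki-5, 13.4 for PPARb and 10.9 for Pol II, and its HA height of 34.9 (25.3 to 46.8) was the tallest of any member. In isolated cells the Dlat heights were 6.41 (Qki-5) and 7.07 (PPARb). Pdhb, the catalytic beta subunit, had Qki-5 heights of 18.3 in differentiated cells and 12.4 in isolated cells, and a PPARb height of 11.1. Pdhx, which anchors the dihydrolipoamide dehydrogenase, had the tallest Pol II peak of the group at 18.9, with 15.5 (Qki-5) and 10.2 (PPARb), at an end near Apip. Dld, the dehydrogenase subunit that this complex shares with oxoglutarate dehydrogenase, had heights of 9.40 (Qki-5), 12.9 (PPARb), 15.8 (HA) and 10.4 (Pol II) in differentiated cells, and 11 for Qki-5 in isolated cells. Its Qki-5 height was the lowest of bound members after Pdha1.

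The kinases that inactivate pyruvate dehydrogenase split into bound and unbound members. Pdk1 had heights of 17.1 (Qki-5), 10.2 (PPARb), 18.2 (HA) and 13.3 (Pol II) in differentiated cells, and 9.62 for Qki-5 in isolated cells. Pdk2 had 19.4, 13.4, 12.7 and 8.44 in the same order in differentiated cells, and 12.8 for Qki-5 in isolated cells. Pdk3 had no Qki-5 or PPARb peak within 5 kb in either cell kind, and only an HA peak of 7.92 (10 tags) and a Pol II peak of 5.22 in differentiated cells. Both Pdk3 peaks were near the bottom of their lists, above 7.45% and 1.82% of all HA and Pol II peaks.

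Pdk4 had no peak within 5 kb in any list. The nearest differentiated-cell PPARb and HA peaks, with heights of 6.68 and 7.92, had their centres 13552 and 13594 bp upstream of the start of Pdk4. The nearest Qki-5 peaks lay 40203 bp from its span in differentiated cells and 35796 bp in isolated cells, and the nearest Pol II peak 185061 bp away. The kinase known from other tissues as a PPAR target thus had a low PPARb and HA pair upstream of it, outside the window that defined binding here. These peaks were singled out after their values were seen.

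The phosphatases that reactivate the complex also differed. Pdp1 had heights of 18.3 (Qki-5), 12.9 (PPARb), 18.2 (HA) and 12.5 (Pol II) in differentiated cells, and 9.16 for Qki-5 in isolated cells. Pdp2 had 12.7 for Qki-5 and 14.3 for HA, with neither a PPARb nor a Pol II peak, in differentiated cells, and 5.95 for Qki-5 in isolated cells. The nearest PPARb and Pol II peaks were 42779 and 42552 bp from Pdp2. Pdk3, Pdk4 and Pdp2 were the only members without a PPARb peak in differentiated cells, and all 3 are regulators of pyruvate dehydrogenase. The other regulators listed, Pdk1, Pdk2 and Pdp1, had a PPARb peak, as did 57.2% of other genes. HA, the tag on the introduced receptor, had a peak at Pdk3 (7.92) and Pdp2 (14.3). Whether regulators differ from other members was not tested.

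Pcx, which carboxylates pyruvate to oxaloacetate, had the most peaks of any member: 9 (Qki-5), 9 (PPARb), 7 (HA) and 6 (Pol II) in differentiated cells, and 2 for Qki-5 in isolated cells. Its tallest Qki-5 peak, at 23.2 (16.7 to 31.4), lay 283 bp upstream of a start. The tallest PPARb peaks, at 15.1, lay 38001 and 47819 bp inside the gene, and a PPARb peak of 11.6 lay at the start. The tallest HA peak, at 27.7, lay in the gene near an end of Lrfn4, and Pol II reached 12.5. In isolated cells the tallest Pcx Qki-5 peak had a height of 15.6.

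Cs, citrate synthase, was 1 of 3 members with peaks in all 6 lists, together with Mpc2 and Dlat (6.26% of other genes had all 6). It had heights of 15.5 (Qki-5), 10.7 (PPARb), 19.8 (HA) and 14.1 (Pol II) in differentiated cells, while in isolated cells Qki-5 reached 16 and PPARb 8.16. Its Qki-5 height was second only to that of Sdhb among members in isolated cells. Aco1, the cytosolic aconitase, had heights of 15.5 (Qki-5), 11.1 (PPARb), 26.1 (HA) and 14.1 (Pol II) in differentiated cells, and a Qki-5 height of 11 in isolated cells. The paired enzymes were alike in their Qki-5, PPARb and Pol II heights, with overlapping intervals.

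Of the NAD-dependent isocitrate dehydrogenase genes, Idh3a, Idh3b and Idh3g had low PPARb heights of 8.01, 8.90 and 8.01 in differentiated cells, with Qki-5 heights of 13.8, 18.3 and 10.5. HA heights were 19, 11.9 and 13.5 in the same order. Idh3a was the only one of the 3 without a Pol II peak within 5 kb, the nearest being 26262 bp away, and the only one without an isolated-cell Qki-5 peak. In isolated cells the Qki-5 height was 12.4 at Idh3b and 6.41 at Idh3g, whose end lies near Ssr4. The Pol II peak of 38.6 counted for Idh3b lay 4842 bp outside it at an end of Nop56, and the Pol II peak at the end of Idh3b itself had a height of 12.5.

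The NADP-dependent enzymes Idh1 and Idh2 had their tallest peaks mostly at starts inside their spans. At Idh1 the tallest Qki-5 (17.1), PPARb (14.7) and HA (24.6) peaks of differentiated cells, and the Qki-5 peak of isolated cells (12.4), lay 105 to 122 bp upstream of an annotated start inside the gene. The Pol II peak of 12.1 was instead 346 bp outside the far upstream start, near an end of Pikfyve, where PPARb (10.2) and HA (15.1) had lower peaks and Qki-5 had none. Idh2 had peaks of 14.9 (Qki-5), 12.9 (PPARb), 24.6 (HA) and 10 (Pol II) in differentiated cells, 174 to 1249 bp inside an annotated start, and none in isolated cells. Idh2 was bound but had no boundary peak because RefSeq's span reaches beyond that start.

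The 3 genes specific to oxoglutarate dehydrogenase, Ogdh, Ogdhl and Dlst, were bound by all 4 proteins in differentiated cells. Qki-5 heights ran from 12.7 to 16, PPARb heights from 9.79 to 11.1, HA heights from 17.4 to 21.4 and Pol II heights from 10.9 to 14.5. Ogdh, the catalytic subunit, had the tallest PPARb peak of the group, with heights of 16 (Qki-5), 11.1 (PPARb), 19.8 (HA) and 11.3 (Pol II). Dlst, the succinyltransferase core, had 14.4, 9.79, 21.4 and 14.5 in the same order, at an end near Prox2. Ogdhl, a paralog of Ogdh, was the lowest of the group for Qki-5 at 12.7. None of the 3 had a Qki-5 peak within 5 kb in isolated cells. The nearest was 16675 bp from Ogdh, 120035 bp from Ogdhl and 85297 bp from Dlst.

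Succinyl-CoA ligase genes were all bound in differentiated cells, and Suclg1, the alpha subunit common to both forms of the enzyme, had the tallest PPARb peak of the group at 13.8. Its other heights in differentiated cells were 17.1 (Qki-5), 12.7 (HA) and 7.64 (Pol II), and its Qki-5 height in isolated cells was 11.9. The beta subunits Sucla2 and Suclg2, with Qki-5 heights of 18.3 and 12.2 in differentiated cells, had no Qki-5 peak in isolated cells. Sucla2 had the tallest Pol II peak of the group, 18.5 against 6.83 at Suclg2, and the lowest PPARb height, 8.01. The tallest Suclg2 peaks of Qki-5 (12.2) and PPARb (11.1) lay deep in this long gene, 235583 and 235557 bp from its start, while lower peaks of 8.30 (Qki-5) and 7.57 (PPARb) lay 632 and 136 bp inside its end at the start.

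Succinate dehydrogenase, which joins the cycle to the respiratory chain, had the tallest Qki-5 peak of any member. Sdha, the flavoprotein subunit, had heights of 24.3 (Qki-5), 16.5 (PPARb), 16.6 (HA) and 14.9 (Pol II) in differentiated cells, and 10.5 for Qki-5 in isolated cells. The interval of its Qki-5 height, 17.7 to 32.7, did not overlap that of Pdha1. The bound end of Sdha lies near an end of Ccdc127. Sdhb, the iron-sulphur subunit whose promoter is printed above, had 18.3, 15.6, 26.9 and 10.9 in the same order in differentiated cells. In isolated cells Sdhb reached 17.4 (12.3 to 23.9), the tallest Qki-5 peak of any member there. Its Qki-5, PPARb and HA peaks in differentiated cells were centred 29, 20 and 19 bp after the start, and the isolated-cell Qki-5 peak 6 bp before it. The membrane anchor Sdhc had heights of 12.7 (Qki-5), 8.90 (PPARb), 18.2 (HA) and 9.65 (Pol II) in differentiated cells. The other anchor, Sdhd, had 15.5, 13.4, 12.7 and 9.65 in the same order, at an end near Timm8b. In isolated cells Sdhd had no Qki-5 peak, and Sdhc had one of 5.95 at the gene end opposite its differentiated-cell peaks.

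Fh1 (fumarase), Mdh1 (cytosolic malate dehydrogenase) and Mdh2 (the mitochondrial form) were bound by all 4 proteins in differentiated cells and by Qki-5 in isolated cells. Mdh2 had the tallest PPARb peak of the group, at 12, with heights of 21.6 for Qki-5, 13.5 for HA and 17.3 for Pol II in differentiated cells, and 11.9 for Qki-5 in isolated cells. Its peaks lay at an end near Styxl1. Mdh1 had Qki-5 heights of 18.3 in differentiated cells and 12.4 in isolated cells, with 11.6 for PPARb, at an end near Wdpcp. Fh1 was the lowest of the group in both Qki-5 lists, at 14.9 in differentiated cells and 10.1 in isolated cells, and for PPARb at 9.35. In all, 10 of the 32 members with a boundary peak had the end of another protein-coding gene within 1000 bp of one.

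The 3 X-linked members were Pdha1, Idh3g and Pdk3, and Pdk3 had neither a Qki-5 nor a PPARb peak. Qki-5 heights were 7.19 at Pdha1 and 10.5 at Idh3g, against a median of 16 at the 30 bound autosomal members. Among other genes bound by Qki-5, the median was also lower on the X chromosome: 8.85 at X-linked and 15.5 at autosomal genes. A Qki-5 peak lay within 5 kb of 32.8% of other X-linked genes and 62.4% of other autosomal genes. The labels do not give the sex of the cells.

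Qki-5 and PPARb peaks lay close together. Both were within 5 kb of 31 members in differentiated cells (55.4% of other genes), and at 29 members a Qki-5 peak overlapped a PPARb peak (51.2%). Of 58 Qki-5 peaks at members, 41 overlapped a PPARb peak (70.7%), with a median distance of 50 bp between centres. The share was 66.8% at other genes, at a median distance of 45 bp. The pairing at members was thus close to that at genes in general.

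Isolated cells had Qki-5 at most members. A Qki-5 peak was within 5 kb of 24 of 34 members in isolated cells (35.6% of other genes) and at a gene end of 23 (26.3%). All 24 were also bound by Qki-5 in differentiated cells (34.4% of other genes had Qki-5 in both cell kinds). Limited to genes with a Pol II boundary peak in differentiated cells, 23 of 30 members had an isolated-cell Qki-5 peak (66.5% of such other genes). The 8 members with Qki-5 in differentiated cells alone were Idh3a, Idh2, Ogdh, Ogdhl, Dlst, Sucla2, Suclg2 and Sdhd. Other subunits of the same enzymes, among them Idh3b, Idh3g, Suclg1, Sdha, Sdhb and Sdhc, had a Qki-5 peak in isolated cells. Among genes with a differentiated-cell Qki-5 peak, 25% of members and 43.7% of other genes had none in isolated cells.

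Members without an isolated-cell Qki-5 peak had a median differentiated-cell Qki-5 height of 14.65 (12.2 to 18.3, 8 genes), against 17.1 (7.19 to 24.3, 24 genes) for those with one. The ranges overlapped. At other genes the same medians were 12.7 and 17.1. Where bound in isolated cells, members had a median Qki-5 height of 11 and other bound genes 10.5.

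PPARb was called at few genes in isolated cells. Mpc2, Dlat and Cs had a PPARb peak within 5 kb (7.57% of other genes), in each case at a gene end (5.01%). All 3 had Qki-5 as well in isolated cells (6.99% of other genes) and PPARb in differentiated cells (7.34% had PPARb in both cell kinds). Their heights of 6.53, 7.07 and 8.16 rested on 12, 13 and 15 tags, and none lay above the median of other bound genes, 8.16. A count of 3 of 34 is near the share of other genes.

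Tallest peaks sat at annotated starts more often than at other bound genes. The nearest start was within 1000 bp at 28 of 29 members with a known start for Qki-5 (96.6%, against 65.0% of other genes), 26 of 28 for PPARb (92.9%, 62.2%), 28 of 30 for HA (93.3%, 65.7%) and 28 of 29 for Pol II (96.6%, 74.1%). In isolated cells this held for Qki-5 at 22 of 22 members, against 72.0% of other genes. Within 1000 bp, the median position relative to the start was -42.5 bp for Qki-5, -53 bp for PPARb and 76.5 bp for Pol II, with negative values upstream. Pol II lay downstream of the start at 22 of 28 members and Qki-5 at 9 of 28. At other genes 68.3% of Pol II peaks and 36.0% of Qki-5 peaks within 1000 bp were downstream.

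**Figure D4:**
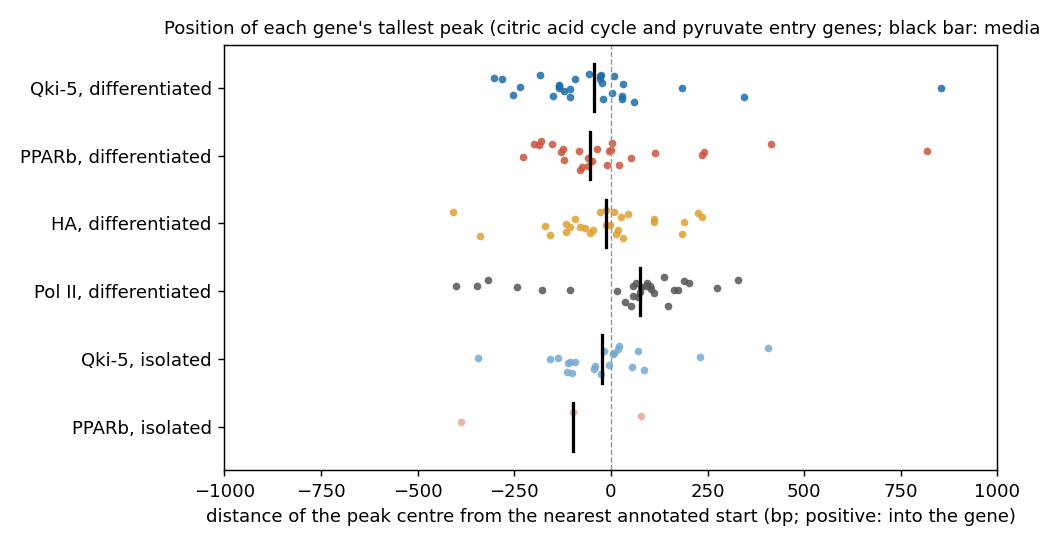
Distance in bp of each gene's tallest peak centre from the nearest annotated start (positive values lie in the gene) for citric acid cycle and pyruvate entry genes with a peak within 1000 bp, by list; black bars are medians. Qki-5 and PPARb of differentiated cells centre just before the start (medians -42.5 and -53 bp), and Pol II after it (76.5 bp).

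Promoters of the members were richer in G and C than other promoters. The RefSeq table held 41 promoters, of 300 bases from 250 before to 50 after the start, for 31 members. Some windows of 1 gene overlap, so the same letters can be counted more than once. Their median GC content was 62%, against 56.3% for other promoters. Searched on both strands, GGGCGG was in 28 of 41, from 23 members (68.3%, against 46.2% of all 21263 promoters), and CCAAT in 26, from 20 members (63.4%, against 38.2%). The nuclear receptor half-site AGGTCA was in 9 (22%, against 14.7%), at Fh1, Idh3g, Mpc1, Ogdh, Ogdhl, Pcx, Sdhb, Sdhd and Sucla2. The windows with the match at Mpc1, Ogdh and Pcx held no Qki-5 or PPARb centre. At Mpc1 the match lay before another start than that of the printed stretch. A pair of AGGTCA half-sites with 1 base between them, the classical PPAR and RXR element, was in 0 of 41 and in 0.047% of all promoters. The longer TCAAGGTCA, a site of estrogen-related receptors that contains AGGTCA, was in 1 promoter (2.44%, against 0.334%), that of Sdhd, beginning 36 bp after the start. GCATGCGC was in 2 of the 31 members, Ogdh and Sdhb, where overlapping Ogdh windows held the same site (3.52% of all promoters held it), and CCGGAAGT, an ETS site, in 1 (2.44%, against 5.15%), that of Dlst. ACTAAC, the core that Quaking binds in RNA, was in 4 (9.76%, against 5.46%), at Dlst, Fh1, Pdk1 and Pdk2. Only the Pdk2 match lay after the start of its window, 21 bp in, and it was on the strand opposite to the gene. Of these 4 windows, that of Fh1 alone held a Qki-5 centre. A match is only a string of letters, and its absence says nothing on binding of the factor. In differentiated cells a Qki-5 centre lay in 24 of the 41 promoters (30.8% of 21222 other promoters), a PPARb centre in 22 (27.2%) and a Pol II centre in 6 (12.9%), the last near the share of other promoters. The window ends 50 bp after the start, short of the median Pol II position of 76.5 bp, so it misses many Pol II centres. Within 1000 bp of a gene end, 30 of 34 members had a Pol II peak, against 36.3% of other genes.

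Other genes around the cycle, 34 in number, gave similar counts. Qki-5, PPARb and HA peaks were each within 5 kb of 32 of these 34 in differentiated cells (61.1%, 57.2% and 60.5% of all 21853 non-members). Pol II was within 5 kb of 29 (47.4%). In isolated cells Qki-5 was within 5 kb of 20 (35.6%) and PPARb of 4 (7.57%). Among non-members with a Pol II boundary peak, 98.3% had Qki-5 and 95.7% had PPARb in differentiated cells, so such counts are common at genes of that kind. Slc25a13, a mitochondrial aspartate-glutamate carrier, and Pck1, which makes phosphoenolpyruvate from oxaloacetate, had no peak in differentiated cells. PPARb peaks in isolated cells lay at Lias, which makes the lipoyl group carried by Dlat and Dlst (9.24), at Acly, the cytosolic citrate cleavage enzyme (9.24), at the deacetylase Sirt3 (8.70) and at the glutamate carrier Slc25a18 (7.61).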

How the data were processed

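ChIP-seq peak lists of 6 antibody libraries were used; the 2 inputs entered only through the peak caller. The build mm10 and HOMER 4.10.1, SAMtools 1.8, Bowtie 1.2.2 and Trim Galore 0.4.4 are named in the submitters' processing notes. Per the file headers, the authors called peaks with HOMER at a false discovery rate of 0.001, with a 4-fold ratio and a Poisson p-value of 0.0001 over input and a 4-fold ratio over the local 10000 bp. Height is the deposited signal, a tag count that the authors normalized to 10000000 tags per library. The deposited total tags are raw counts in 4 lists and depth-scaled in the differentiated-cell PPARb list and the Pol II list, per the file headers. Deposited fold ratios and p-values are the caller's. Tag numbers behind intervals were recovered as height times library depth. What the word merge in the headers of the differentiated-cell Qki-5 and isolated-cell input directories covers is not stated in these sources.

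Peak centres on chromosomes 1 to 19, X and Y were assigned to RefSeq GRCm38.p6 gene spans with Python 3.11.15, pandas 2.3.3 and numpy 2.4.6; intervals came from scipy 1.17.1. Assignment was checked on simulated peaks. Starts and strands came from RefSeq promoters, which matched 31 of 34 members; no start was used for Idh3a, Sdhc and Pdp1. Lists overlapped when peaks shared at least 1 bp. Members and lists were chosen by biochemical role, with earlier results of these data known. Values in every list were given for the pyruvate carrier, Pdha1, kinases, phosphatases and Pcx, for members with an isolated-cell PPARb peak or without a Qki-5 or PPARb peak in differentiated cells, and for the member with the tallest PPARb peak of each role; other members are given in part. Alternatives changed the window, the peak threshold, the assignment and the background.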

Additional observations from a re-analysis of the deposited data

How the results depend on the processing

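No paired analysis was possible because each group had 1 library. Of 129 alternative values, 83 were labelled the same, 33 moved and 13 reversed. The quantity is the share of members minus that of other genes, in percentage points, or the ratio of median heights. Reversed values are differences that changed sign. The labels are coarse and are no test. For HA within 5 kb, with a main difference of 36.5, 25.3 inside the span alone was labelled the same. A value of 40.4 with a window of 1000 bp was labelled moved. The cause of the moves was not tested beyond what each alternative leaves out. The low depth of isolated-cell PPARb limits every count there.

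Limited to the 2000 tallest peaks of each list, differences within 5 kb were 1.21 (differentiated-cell Qki-5), -8.07 (differentiated-cell PPARb), 0.587 (HA), 12.5 (Pol II) and 8.43 (isolated-cell Qki-5). At gene ends they were 4.75, -4.02, 1.43, 12.1 and 11.2 in the same order. No member had one of the 2000 tallest PPARb peaks of differentiated cells within 5 kb. Differences in that setting were -4.39 for Qki-5 with PPARb within 5 kb, -3.95 for overlapping pairs, -0.682 for all 4 proteins, and 0.245 for Qki-5 and -2.14 for PPARb in both cell kinds. The value for all 4 proteins counts as reversed, but with 0.682% of other genes a count of 0 of 34 members shows no direction. The isolated-cell PPARb list held 1391 peaks, so this limit left its own counts unchanged, and they count as the same.

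Limited to genes with a Pol II boundary peak, differences within 5 kb were -1.67 (differentiated-cell Qki-5), 0.969 (differentiated-cell PPARb), 1.54 (HA), 0 (Pol II, by construction), 10.2 (isolated-cell Qki-5) and -4.95 (isolated-cell PPARb). At gene ends they were -2.26, 5.69 and 3.73 for differentiated-cell Qki-5, PPARb and HA, and 14.0 and -2.04 for isolated-cell Qki-5 and PPARb. Qki-5 with PPARb gave 1.90 within 5 kb and 5.34 for overlapping pairs in differentiated cells, and -3.95 and -2.45 in isolated cells. Of other genes in this setting, 98.3% had Qki-5 and 95.7% had PPARb within 5 kb in differentiated cells, so little excess was possible there.

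With peaks of at least 8-fold over input, differences within 5 kb were 17.8 for differentiated-cell PPARb and 12.3 for isolated-cell Qki-5. At gene ends they were 21.4 for differentiated-cell PPARb, 33.7 for HA and 17.2 for isolated-cell Qki-5. Joint differences were 18.7 for Qki-5 with PPARb within 5 kb, 16.9 for overlapping pairs, 26.8 for all 4 proteins and 11 for Qki-5 in both cell kinds. Inside the span alone they were 14.4, 13.8, 14.8 and -0.889 for differentiated-cell Qki-5 and PPARb and isolated-cell Qki-5 and PPARb. HA within 5 kb gave 45.2 with peaks nearest to the gene alone and 40.4 with a window of 1000 bp. By fold over input, the median of members over that of other genes was 1.50 for isolated-cell PPARb.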
